A study of Rattus norvegicus with 4 samples.

Results

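Striated-muscle microRNAs (miRNAs) were followed in RNA of rat serum exosomes: rno-miR-1-3p, rno-miR-133a-3p, rno-miR-133a-5p, rno-miR-133b-3p, rno-miR-206-3p and rno-miR-499-5p. They were chosen by name as miRNAs of heart and skeletal muscle, and all 6 were among the 719 rat miRNAs on the array. Exosomes are small vesicles that cells release into body fluids. The 4 groups were male rats of a strain written as baffolo in the design text: an uninjected naive group (day 0), and groups with hepatocellular carcinoma (HCC) called light (day 35), moderate (day 49) and severe (day 49). The protocol has an HCC cell line injected, which it does not name, whereas the design text speaks of HCC exosomes given as 1 dose. The design text speaks of 4 independent experiments at each time in different rats, but 1 one-colour array per group was analysed, and nothing in the labels says how many rats its RNA came from. Replicate error between rats is therefore unknown, no p-value is given, and a difference described here is one between a pair of arrays. Each error after ± is the standard error of the spots on a single array, and it covers spot noise alone. Disease and day cannot be told apart in a comparison with the naive array. The same holds for severity and day where the moderate or severe array is set against the light array. Fewer vesicles that carry a miRNA and less of it per vesicle cannot be told apart either.

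As background, miR-1 and miR-133a are made from shared transcripts in heart and skeletal muscle, where miR-1 is known to promote differentiation and miR-133 to act on proliferation. miR-206 and miR-133b form a similar pair that is most active in skeletal muscle. miR-499 lies in an intron of a myosin heavy chain gene. In blood these miRNAs are best known as markers of damaged muscle.

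The mature sequences show which members an array may tell apart with difficulty, and which belong to 1 target family. They are from RefSeq (build GRCr8), where all 6 members matched by name, and are written 5′ to 3′ with the seed, bases 2 to 8, in capitals. The seed is the stretch that pairs with target transcripts.

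rno-miR-1-3p: uGGAAUGUaaagaaguguguau

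rno-miR-206-3p: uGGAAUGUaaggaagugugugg

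rno-miR-133a-3p: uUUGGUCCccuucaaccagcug

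rno-miR-133b-3p: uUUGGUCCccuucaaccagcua

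rno-miR-133a-5p: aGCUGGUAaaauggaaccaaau

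rno-miR-499-5p: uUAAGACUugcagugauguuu

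miR-1-3p and miR-206-3p share a seed and are identical at 19 of 22 bases. Counted from the 5′ end of miR-1-3p, they differ by A11G, A21G and U22G. miR-133a-3p and miR-133b-3p share the other common seed and are identical at 21 of 22 bases, with G22A at the 3′ end of miR-133a-3p as their only difference. Signals within each of these pairs are uncertain as to which of the 2 RNAs gave them, since the binding of one RNA to the other's probes was not tested. A further relative, miR-1b from a gene on chromosome 3, shares the seed of miR-1-3p. It is identical to miR-1-3p at 21 of 22 bases, with G17A as the only difference. The array had no miRNA of that name, and whether miR-1b adds to the miR-1-3p signal was not tested. miR-133a-5p, from the opposite arm of the miR-133a precursor, and miR-499-5p each have a seed of their own among the 6.

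The pairs also differ in where their genes lie. The miR-1 gene (Mir1, chromosome 18, minus strand) has the miR-133a gene Mir133a1 on the same strand, with 2368 bases between them. The miR-206 gene (Mir206, chromosome 9, plus strand) has the miR-133b gene on the same strand, with 3801 bases between them. By position miR-133a is thus the partner of miR-1, and miR-206 the partner of miR-133b. The precursors of the pair of members measured most widely are shown with the mature miRNA in capitals, because the opposite arm of each was also on the array.

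Mir133b, chr9:30594582-30594665, plus strand: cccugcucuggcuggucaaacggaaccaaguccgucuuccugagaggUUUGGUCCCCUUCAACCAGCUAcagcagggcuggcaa

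Mir1, chr18:2160327-2160413, minus strand: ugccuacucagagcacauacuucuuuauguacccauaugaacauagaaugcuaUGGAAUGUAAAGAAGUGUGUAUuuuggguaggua

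The scanner software detected 140 (naive), 122 (light), 176 (moderate) and 129 (severe) miRNAs. The moderate array was the brightest, and the signal summed over detected miRNAs was 0.643 (light), 1.58 (moderate) and 0.694 (severe) relative to naive. Spike-in RNA added at labelling gave 1.004, 0.891 and 0.620 times the naive signal on the light, moderate and severe arrays. Signals were therefore divided by the 75th percentile, on each array, of the 111 miRNAs that every array detected. A miRNA counts as measured where it was detected and its signal reached the floor of the array, set by the dimmest probe whose spots were well above background in a share of 0.5 or more. In array order the floors were 15.6, 15.1, 13.1 and 16.0 intensity units.

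miR-133b-3p was the only member measured on all 4 arrays. Summed over its 2 probes, its unscaled signal was 1114 ± 5.31 (naive), 363 ± 3.35 (light), 2830 ± 9.46 (moderate) and 39.4 ± 1.40 (severe). Scaled to each array, these are 1.67, 1.02, 2.97 and 0.0948. The moderate array thus stood highest and the severe array lowest, with naive above light between them. Spot errors were small against each of these steps.

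miR-1-3p followed the same order. Its unscaled signals were 130 ± 2.02 (naive), 57.2 ± 1.55 (light) and 539 ± 6.86 (moderate). On the severe array it read 2.28 ± 1.15, and 0 of its 20 spots were well above background. The scaled signals were 0.196 on the naive, 0.161 on the light and 0.565 on the moderate array. The naive and light arrays were the closest neighbours in this order, at a log2 difference, light minus naive, of −0.29 ± 0.05. That difference was below 0 in 12 of 13 alternative ways of processing. It was 0.18 with normexp, a background correction that models signal plus noise and adds 50 units to every spot. With normexp the median of all miRNAs measured on both arrays was 0.37. The order of the naive and light arrays for miR-1-3p is therefore not settled.

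**Figure D1:**
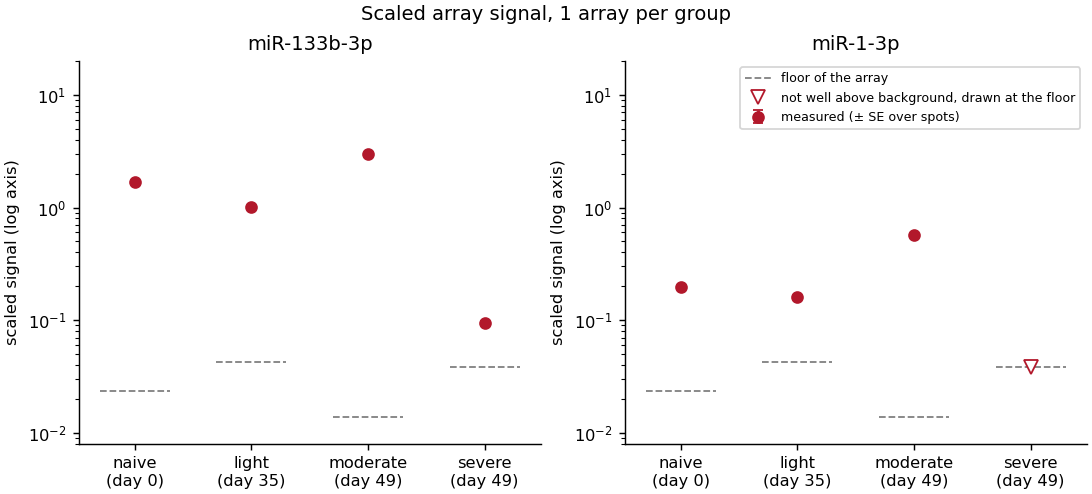
Scaled signal (log axis) of miR-133b-3p and miR-1-3p by group, with 1 array each. Points are measured values with the standard error over spots, mostly smaller than the point. Dashed lines mark each array's floor, and the open triangle is miR-1-3p on the severe array, which was not well above background. Both miRNAs were highest on the moderate array.

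The other 4 members were measured on the moderate array alone. miR-133a-3p read 43.9 ± 1.10 there and 6.65 ± 0.94 on the naive array, where the scanner software detected it below the floor. On the light and severe arrays its background-subtracted sums were −6.31 and −12.5. Its signal came from 1 of its 2 probes: the brighter probe averaged 47.2 on the moderate array (SD 2.76 over 10 spots), while the other averaged −3.31. On the naive array the same brighter probe averaged 15.02 (SD 2.21 over 10 spots, 3 of them well above background).

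miR-133a-5p, the other arm of that precursor, read 19.5 ± 0.64 on the moderate array, again from 1 probe, with 8 of its 17 spots well above background. On the naive, light and severe arrays it had 0 spots well above background. miR-206-3p was the dimmest member on the moderate array at 18.2 ± 1.16, a sum that passed the floor although only 3 of its 20 spots were well above background. Its spots there ran between 3.20 and 17.2, overlapping the negative-control spots, whose highest read 11.7. miR-499-5p read 33.0 ± 0.94 on the moderate array, with all 10 spots of its brighter probe well above background and 0 of 10 on the other probe. On the other 3 arrays miR-206-3p and miR-499-5p had 0 spots well above background.

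Detection on the moderate array and no other was thus the pattern of 3 of the 6 members, all but miR-133b-3p, miR-1-3p and miR-133a-3p. Over all 719 miRNAs, 30 had it (4.17%). That array had the highest summed signal, and the part of this in the detections was not tested.

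**Figure D2:**
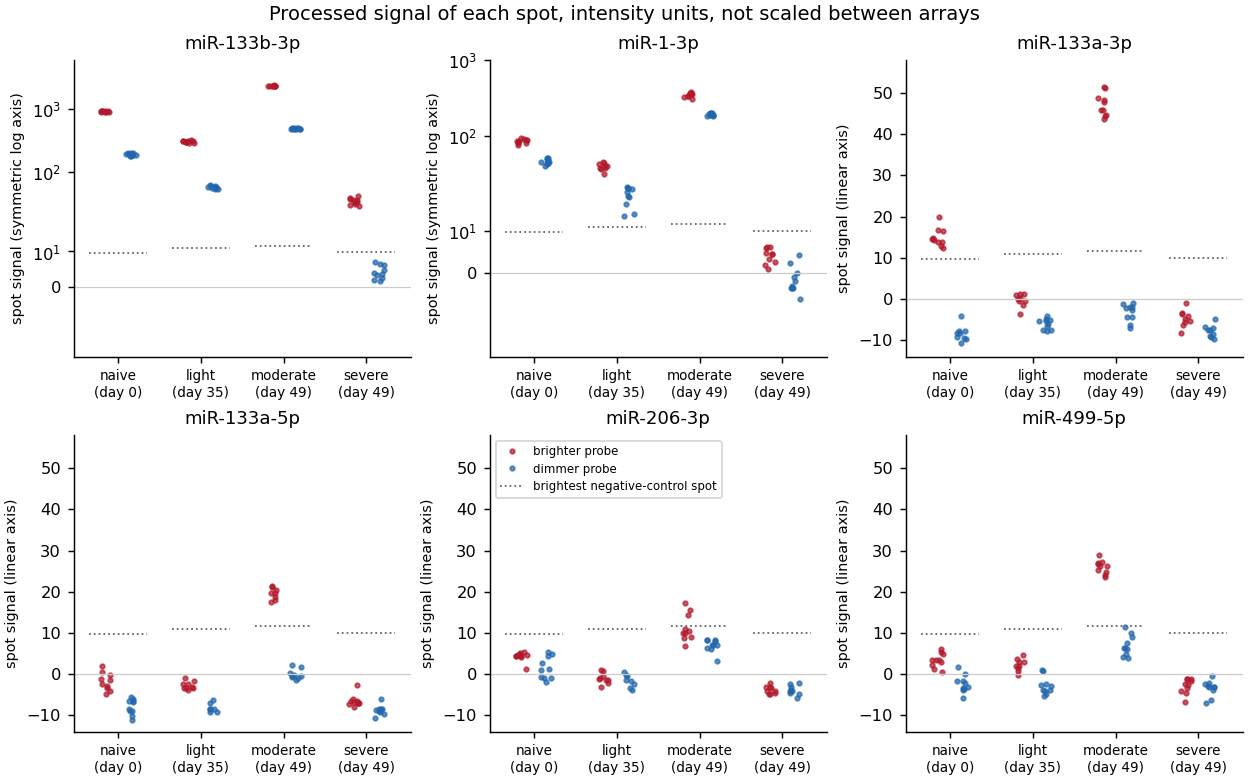
Processed signal of every spot used, in intensity units without scaling, for the 6 members by array. The first pair of panels has a symmetric log axis and the other 4 a linear axis; red and blue points are the brighter and dimmer probe of each miRNA, and dotted lines mark the brightest negative-control spot. miR-133a-3p, miR-133a-5p and miR-499-5p lie clear of the controls with 1 probe on the moderate array, miR-133a-3p also on the naive array, whereas miR-206-3p overlaps them.

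Light disease at day 35 was compared with the naive state. miR-133b-3p stood 1.64-fold lower on the light array (log2 −0.71 ± 0.02) and miR-1-3p 1.22-fold lower (log2 −0.29 ± 0.05). Across the 117 miRNAs measured on both arrays the median difference was 0.27, and miR-133b-3p was in place 5 from the lowest. By the 2-fold rule, 0 of the 2 members measured on either array were higher and 0 lower, against 1.56% and 0.781% of the 128 miRNAs measured on at least 1 of the arrays. Both probes of miR-133b-3p were lower, at −0.69 for the brighter and −0.82 for the dimmer one. The call depended on the scaling: miR-133b-3p was at −1.62 without scaling and at −1.05 with scaling to the median.

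Moderate disease at day 49 had the highest levels of both widely measured members. miR-1-3p was 2.88-fold higher than on the naive array (log2 1.53 ± 0.03), the largest rise among the 126 miRNAs measured on both. Its probes gave 1.52 and 1.54. miR-133b-3p was 1.77-fold higher (log2 0.83 ± 0.01), in place 12 from the highest, with 0.82 and 0.84 for its probes. The median over the 126 miRNAs was 0.22. A miRNA measured on 1 array only has a lower bound, its signal against the higher of the floor and its own signal on the other array. The bound was 1.96-fold for miR-133a-3p (log2 0.97), but with normexp, where it counted as measured on both arrays, its difference turned to −0.12. In that setting the median over all miRNAs measured on both arrays was −0.14. For miR-499-5p the bound was 1.47-fold (log2 0.56), and 0.10 with signals and scaling from the brightest probe of every miRNA. miR-133a-5p and miR-206-3p gave no fold, since their scaled signals on the moderate array lay under the scaled floor of the naive array.

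By the 2-fold rule with bounds, 1 of the 6 members, miR-1-3p, was higher and 0 were lower, against 5.42% and 1.20% of the 166 miRNAs measured on at least 1 of the arrays. The size of the rise depended on the scaling. miR-1-3p lay between 0.89, with normexp, and 2.31 over the 13 alternatives. It was the largest rise in 11 of them. miR-133b-3p lay between 0.39 and 1.60, above 0 in all 13.

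The moderate array was also set against the light array. miR-1-3p was 3.52-fold higher on the moderate than on the light array (log2 1.82 ± 0.04) and miR-133b-3p 2.91-fold higher (log2 1.54 ± 0.01). They held places 1 and 2 among 117 measured miRNAs, whose median was −0.01. With normexp miR-1-3p was at 0.71, which does not reach 2-fold, and it was the highest in 9 of the 13 alternatives. miR-133b-3p lay between 1.12 and 3.17 over the 13, and its place fell as far as 6 from the highest.

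Severe disease at day 49 showed the lowest levels. Against the naive array miR-133b-3p was 17.6-fold lower (log2 −4.14 ± 0.05), the lowest of the 109 miRNAs measured on both arrays, whose median was −0.11. Its brighter probe averaged 35.3 on the severe array (SD 3.97 over 10 spots), against 922 on the naive array (SD 14.2 over 9 spots). The dimmer probe averaged 4.08 on the severe array, with 0 of 10 spots well above background, against 192 on the naive array. The spots of the severe and naive arrays did not overlap for either probe. On the severe array the measurement therefore rests on 1 probe, and that probe alone gave log2 −4.03.

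The bound for miR-1-3p was 5.08-fold lower on the severe than on the naive array (log2 −2.34). That bound sets a sum of 2 probes against a floor from 1 probe and is not strict. With signals and scaling from the brightest probe of every miRNA it was −1.79, and with normexp −0.52, which no longer reaches 2-fold. The remaining 4 members were measured on neither of these arrays. By the 2-fold rule 0 of the 2 members measured were higher and 2 were lower, against 24.1% and 18.2% of the 137 miRNAs. The difference of miR-133b-3p was past 2-fold and the lowest of all in each of the 13 alternatives, between −4.86 and −2.43, with the smallest size under normexp, which adds 50 units to every spot.

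**Figure D3:**
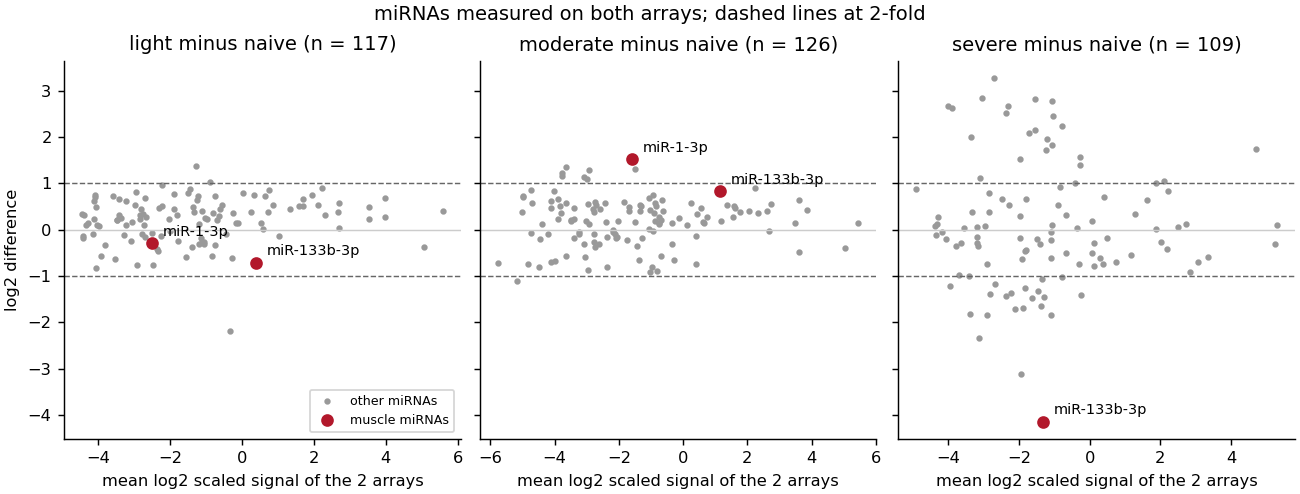
Log2 difference from the naive array against the mean log2 scaled signal of the 2 arrays, for every miRNA measured on both, for the light, moderate and severe arrays. Each point is 1 miRNA, red points are muscle miRNAs, and dashed lines mark 2-fold. miR-1-3p is the highest point at moderate (1.53) and miR-133b-3p the lowest at severe (−4.14).

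Severe and moderate disease were sampled at the same day. miR-133b-3p was 31.3-fold lower on the severe than on the moderate array (log2 −4.97 ± 0.05), the lowest of 115 miRNAs with a median of −0.41. For miR-1-3p the bound, again not strict, was 14.7-fold lower (log2 −3.87). It was −3.20 with the brightest probe of every miRNA and −1.41 with normexp. For miR-133a-3p the bound was a log2 difference of −0.26. miR-133a-5p, miR-206-3p and miR-499-5p gave no fold here, as their moderate signals lay under the scaled floor of the severe array. By the 2-fold rule 0 of the 6 members were higher and 2 lower, against 17.8% in each direction of 169 miRNAs. Against the light array, miR-133b-3p was 10.8-fold lower on the severe array (log2 −3.43 ± 0.05), with −1.78 under normexp. The bound for miR-1-3p was 4.17-fold lower (log2 −2.06). However, it was −1.21 with the brightest probe of every miRNA and −0.70 with normexp, which no longer reaches 2-fold.

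miR-1 was then compared with miR-133 as a change against a change, since levels of different probes cannot be set against each other. Any single scaling factor cancels in this comparison. From naive, the change of miR-1-3p exceeded that of miR-133b-3p by 0.43 ± 0.05 on the light array and by 0.70 ± 0.03 on the moderate array, on the log2 scale. In moderate minus light the excess was 0.27 ± 0.05. All 3 are larger than the spot errors, but there is no replicate array to set them against, and they share arrays. Between the moderate and light arrays the excess turned to −0.74 under normexp, and between moderate and naive it shrank to 0.09.

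For severe disease the pair cannot be ordered. The fall of miR-133b-3p was measured and that of miR-1-3p is a bound, so the fall of miR-1-3p may be the smaller or the larger one. miR-133a-3p, the neighbour of the miR-1 gene, allowed no such comparison, because it was measured on 1 array. miR-206-3p, the neighbour of miR-133b, was likewise measured on the moderate array alone.

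Other arms and relatives gave little signal. Of 10 listed, 8 were on the array, and miR-1b and miR-133c had no match. Only miR-208a-5p, from a precursor of the heart's myosin gene Myh6, was measured anywhere. It read 32.1 ± 1.21 on the moderate array, with 13 of 20 spots well above background, and had 0 such spots on the naive, light and severe arrays. miR-1-5p and miR-133b-5p, the opposite arms of the precursors shown above, were not detected on any array, and neither were miR-206-5p, miR-499-3p, miR-208a-3p, miR-208b-3p or miR-208b-5p. Among miRNAs enriched in muscle but not restricted to it, miR-22-3p was measured everywhere and differed from naive by 0.53, 0.40 and 0.02 on the light, moderate and severe arrays. miR-378a-5p was not detected, and miR-378a-3p and miR-486-5p had no match.

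By Euclidean distance between centred log2 profiles over the 4 arrays, with dim values at the floor, the miRNA nearest to miR-133b-3p was miR-1-3p among 133 candidates, at a distance of 1.33 against a median of 3.58. Next came miR-150-5p (1.84), a lymphocyte miRNA, then miR-215 (2.08), miR-143-3p (2.09) and miR-199a-3p (2.31). The nearest to miR-1-3p were miR-143-3p (0.92) and miR-199a-3p (1.15), both abundant in smooth muscle and stroma, with miR-133b-3p in place 3 (1.33), followed by miR-30b-5p (1.51) and miR-215 (1.57). The profiles rest on 4 points that share an array's scaling. With Pearson correlation as the measure, 1 of the 5 names for miR-133b-3p and 2 of the 5 for miR-1-3p were shared.

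**Figure D4:**
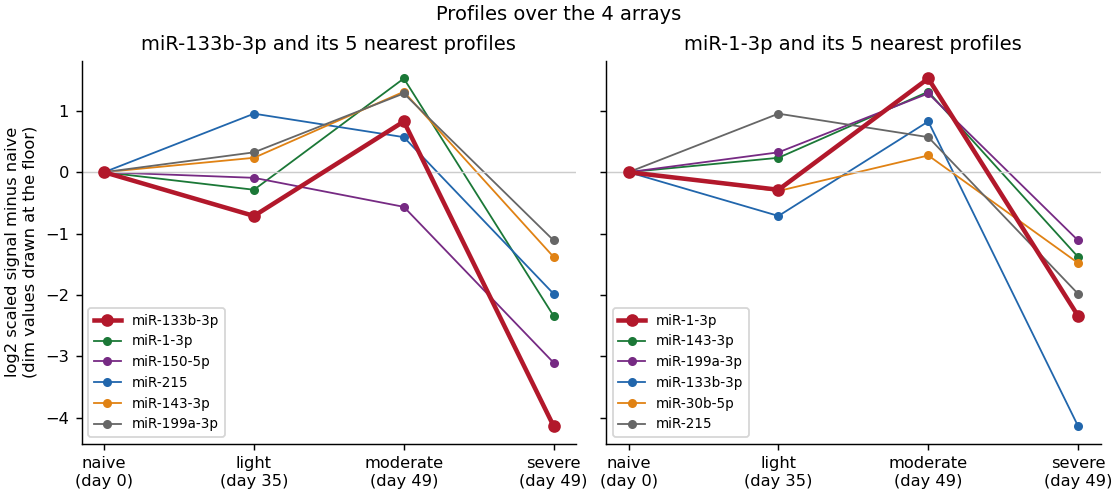
Log2 scaled signal minus that of the naive array for miR-133b-3p, miR-1-3p and the 5 miRNAs with the nearest profiles to each, over the naive, light, moderate and severe arrays. Values under the floor are drawn at the floor. miR-133b-3p lies lowest of all on the severe array (−4.14), and miR-150-5p, at −0.57 on the moderate array, lacks the rise there.

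Marker miRNAs of other cells were summed on the same scale. The smooth muscle and stroma list had 4 of 5 markers measured on the moderate array. All 4 were at least 2-fold higher than naive, with a median log2 difference of 1.30, against 5.42% of 166 miRNAs. With normexp 0 of 177 miRNAs were called higher in that comparison, so these calls depended on the processing. The list's scaled sum was 1.01 on the moderate and 0.222 on the severe array, against 0.409 on the naive array. The striated muscle list held the members themselves, all but miR-133a-5p, with the undetected miR-208a-3p and miR-208b-3p. It is thus not a separate set. It summed to 3.63 on the moderate and 0.10 on the severe array, against 1.89 on the naive array. Of these sums miR-133b-3p alone gave 2.97, 0.0948 and 1.67. miR-145-5p, the second defining marker of smooth muscle beside miR-143-3p, was not detected on any array. On the severe array the median over the 3 markers measured there and on the naive array was −0.11. Relative to naive, miR-143-3p stood at 1.31 on the moderate and −1.38 on the severe array, whereas miR-214-3p and miR-10b-5p stood at −0.11 and 0.12 on the severe array. The part of stromal RNA in the muscle miRNA values was not tested.

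For the red-cell list the scaled sums were 67.9, 57.8 and 41.3 on the light, moderate and severe arrays, against 52.6 on the naive array. These sums are carried by miR-451-5p, which stood at −0.30 on the severe array, where miR-144-3p was higher than naive by 1.82 and miR-144-5p had a bound of 1.97. For leukocytes they were 3.78, 2.40 and 1.57, against 2.77 on the naive array, and the median log2 difference of the 5 markers on the severe array was −0.64, between −3.11 for miR-150-5p and 0.03 for miR-142-3p. For platelets they were 18.8, 19.2 and 11.4, against 12.9. Relative to naive, miR-223-3p stood at −0.91 and miR-126a-3p at −0.98 on the severe array, whereas miR-21-5p stood at 1.06. For hepatocytes the scaled sums were 0.795, 1.53 and 2.46, against 2.21. These markers were also split on the severe array, with miR-192-5p at 1.56 and miR-122-5p at −0.75. On the light array miR-122-5p was at −2.18.

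**Figure D5:**
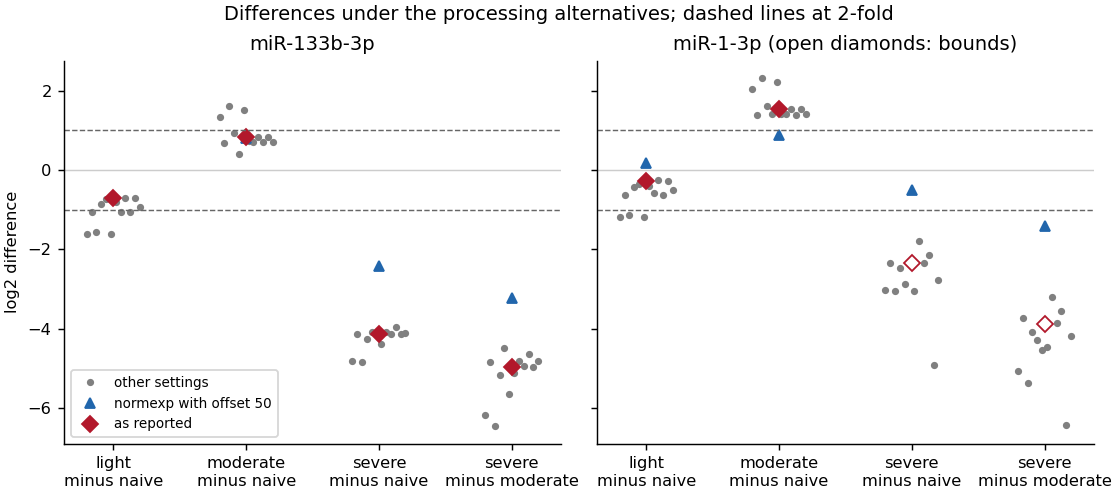
Log2 differences of miR-133b-3p and miR-1-3p in 4 comparisons under 13 other ways of processing. Red diamonds are the values as reported, open where they are bounds, blue triangles are normexp with an offset of 50, grey points are the other settings, and dashed lines mark 2-fold. miR-133b-3p stays past 2-fold lower on the severe array under every setting, while its light and moderate differences cross that line.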

How the data were processed

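Total RNA of serum exosomes was profiled on 4 one-colour (Cy3) Agilent rat miRNA arrays of 1 slide. Per the file headers, the deposited spot intensity came from Feature Extraction 10.7.3.1 on grid 046066, annotated on rn4, background-subtracted and not scaled between arrays; the submitters' processing notes name version 9.1. The labels' labelling protocol describes amplified cRNA. The authors also deposited a total intensity and a detection call per miRNA, and a value table of 102 miRNAs that held the same totals within 0.0424% and 2 of the 6 members.

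Outlier spots were left out (386 naive, 387 light, 386 moderate and 525 severe, of 14380 spots per array), and 0 were saturated. Processed signals were averaged over spots, summed over the 2 probes of each member, scaled and set to log2. Called means at least 2-fold, bounds included. With 1 array per group no test was made, and the number of arrays limits the precision. Named miRNAs are the members, the 5 nearest profiles of miR-133b-3p and miR-1-3p, fixed relatives and cell markers. The members and lists were chosen with earlier results of these data known. Normexp used limma 3.58.1 on spot medians, not spot means; everything else used Python 3.11.15, checked on simulated data. The 13 alternatives are in the closing section.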

Additional observations from a re-analysis of the deposited data

How the results depend on the processing

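The lowest place of miR-133b-3p on the severe array held in all 13 alternatives against naive, light and moderate. Counts of called members depended on scaling and floor. Brackets give the count over all miRNAs measured on at least 1 of the arrays, which moved as well. For moderate against naive 1 member was at least 2-fold higher (9 of 166 miRNAs). The count was 4 without scaling (48 of 166) and 4 with labelling spike-ins (70 of 166). It was also 4 with scaling over all miRNAs clipped at the floor (76 of 166). When the miRNAs behind the scaling needed no detection on the severe array it was 2 (10 of 166). It was 3 with the scanner software's total signal (19 of 173). With the floor at the lowest summed signal it was 5 (37 of 174), and with normexp 0 (0 of 177). For light against naive, where 0 members were lower (1 of 128 miRNAs), the count was 2 without scaling (34 of 128). It was 2 with scaling over all miRNAs (29 of 128) and 2 with spike-ins (35 of 128). It was 1 with median scaling (5 of 128) and 1 with the brightest probe (4 of 129). Detection by spots well above background also gave 1 (5 of 117). For severe against moderate 2 members were lower (30 of 169 miRNAs), and 6 with the lower floor (61 of 178). The count was 4 without scaling and 4 with scaling over all miRNAs. In these 2 settings the array moved the same way, with the median of all miRNAs at −1.61 and −1.90, against −0.41 as reported. For severe against naive the count was 1 with normexp (5 of 151), in place of 2 (25 of 137). The excess of the miR-1-3p change over that of miR-133b-3p was 0.83 with normexp for light minus naive. For moderate minus light it was 0.63 with quantile normalization and −0.74 with normexp, and for moderate minus naive 1.02 and 0.089. The cause of these shifts was not tested. Without scaling, the median of all miRNAs moved to −0.63, 0.74 and −0.79 for light, moderate and severe minus naive, and the split of higher and lower miRNAs to 0 and 34, 48 and 1, and 23 and 53. No paired analysis was possible because each group has 1 array. Signals near the floor limit miR-206-3p and miR-133a-5p most.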
